A study of Mus musculus with 8 samples.

Results

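The comparison set all 4 knockout (KO) libraries against all 4 wild-type (WT) libraries of a Bend2 study, with the stage of meiosis as a covariate. It used 8 of the 8 samples of the series. RNA came from sorted leptotene and zygotene spermatocytes, and each genotype had 2 libraries of each stage, which makes 4 groups. All animals were C57BL/6 mice of 2 months, and the genotypes were labelled Bend2 WT and Bend2 KO. The labels give neither the design of the KO allele nor whether the leptotene and zygotene libraries of a genotype shared animals, so p-values reflect only how far these libraries spread, which may be technical in part. The question was which differences of moderate size, here 1.5- to 4-fold, became resolvable with 4 libraries a side that could not be resolved with 2 against 2 at a single stage.

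In leptotene, chromosomes build axes and receive programmed breaks. In zygotene, homologous chromosomes begin to pair along their length. Both follow the last DNA replication of the germ line, in which the helicase is licensed, single-stranded DNA is coated and histones are made in bulk. Spermatogonia, the mitotic cells before that replication, express the Kit receptor and retinoic acid response genes. Pachytene spermatocytes and spermatids come afterwards and express the sperm head, flagellum and chromatin compaction genes. Bend2 encodes a protein with BEN domains, a fold found in DNA-binding and repressor-associated proteins.

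Rpa2, Mcm2 and Cdca7, which act in or around DNA replication, were among the 12 moderate rises with the smallest p, and the sequences at their transcription starts and that of Cdt1 are shown here for that reason. Of 31 replication genes tested 8 rose in KO, each of them resolved only over both stages. E2F factors are the known activators of many replication genes, and the letters TTTCCCGC, TTTCGCGC, TTTGCCGC and TTTGGCGC were searched on both strands. Windows ran from 250 bases before to 50 bases after each RefSeq start (GRCm38.p6), and 2.26% of all 32851 windows held a match. Of the 8 genes that rose, 7 had a window in the table and 4 of these had a match in at least 1 window. The 2.26% is a share of windows, while the 4 are genes, some with more than 1 window. Matches were not counted for replication genes that did not rise, so the count is not particular to those that rose. Matches are in capitals. Cdt1, which licenses origins, and Cdca7, a chromatin protein of cycling cells, held a match, while Mcm2, a subunit of the replicative helicase, and Rpa2, a subunit of the single-stranded DNA-binding complex RPA, held none. The windows were chr8:122567765-122568064, plus strand (Cdt1), chr2:72475969-72476268, plus strand (Cdca7), chr6:88898731-88899030, minus strand (Mcm2) and chr4:132768110-132768409, plus strand (Rpa2).
Cdt1: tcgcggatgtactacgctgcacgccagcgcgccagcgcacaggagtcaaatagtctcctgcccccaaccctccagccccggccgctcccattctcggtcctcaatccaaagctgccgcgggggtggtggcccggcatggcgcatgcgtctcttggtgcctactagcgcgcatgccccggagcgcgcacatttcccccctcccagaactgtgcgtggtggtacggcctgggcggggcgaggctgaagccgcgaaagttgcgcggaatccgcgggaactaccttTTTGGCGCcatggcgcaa
Cdca7: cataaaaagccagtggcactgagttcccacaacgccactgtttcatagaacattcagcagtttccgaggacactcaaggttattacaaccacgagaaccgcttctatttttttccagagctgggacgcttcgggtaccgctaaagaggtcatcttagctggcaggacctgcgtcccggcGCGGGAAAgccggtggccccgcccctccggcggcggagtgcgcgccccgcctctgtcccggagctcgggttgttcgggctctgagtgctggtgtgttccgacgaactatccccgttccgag
Mcm2: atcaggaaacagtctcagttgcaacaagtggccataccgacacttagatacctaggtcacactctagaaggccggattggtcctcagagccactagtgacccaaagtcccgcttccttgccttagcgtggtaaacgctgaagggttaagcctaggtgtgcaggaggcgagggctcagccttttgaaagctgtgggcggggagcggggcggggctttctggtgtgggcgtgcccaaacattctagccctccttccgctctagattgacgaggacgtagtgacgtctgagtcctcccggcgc
Rpa2: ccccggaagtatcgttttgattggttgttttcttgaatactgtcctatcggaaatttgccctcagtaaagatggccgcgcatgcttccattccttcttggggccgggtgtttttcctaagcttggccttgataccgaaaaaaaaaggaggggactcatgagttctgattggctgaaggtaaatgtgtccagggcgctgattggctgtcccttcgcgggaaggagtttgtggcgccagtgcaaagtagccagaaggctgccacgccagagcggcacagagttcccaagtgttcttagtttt
A match describes letters in a window and is not a measured binding site.

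Values are scaled TPM: StringTie's TPM, a depth- and length-scaled share of a library's transcripts, summed over the transcripts that name a gene and divided by a factor for that library. Between 16699 and 21537 genes were above 0 in a library, with 19808 to 21537 in WT and 16699 to 18220 in KO. The files imply 6.82 to 9.45 aligned gigabases a library, and read counts are unknown. The libraries were of 2 kinds: transcripts that name no gene held 27.72% to 34.07% of the TPM in 4 libraries and 40.25% to 40.99% in the other 4, with 1 library of each kind in every group. The kind was therefore balanced over genotype. With it as a covariate, an alternative added after the data were seen, 668 genes were higher and 1601 lower, against 493 and 1340 without it. A gene listed at 0 had no named transcript in that library's assembly; its RNA may still have been present. A log2 difference is KO minus WT, the value after ± is its standard error unless SD is written, and adjusted p comes from limma with Benjamini-Hochberg adjustment. The first principal component held 40.9% of the variance and placed the 4 KO libraries at 19.6 to 79.6 and the 4 WT libraries at -82.4 to -33.2.

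No gene in the files carries the symbol Bend2. Gm15262, an X-linked protein-coding gene (chrX:161287456-161366252, GRCm38), lies between Scml2 and Rai2, and no table used here gives its identity with Bend2. In RefSeq it ends at 161334722, and another protein-coding gene, Gm36049 (chrX:161357881-161363787), lies between it and Rai2. Exons 11 to 14 used below lie past that RefSeq end, and exons 13 and 14 overlap Gm36049 in position. Its named transcripts stood at 15.9 and 0 in WT leptotene, 15.1 and 0.261 in WT zygotene, 0.38 and 2.13 in KO leptotene and 10.5 and 17.95 in KO zygotene, with an estimated log2 difference of 0.36 ± 1.13 and a 95% confidence interval of -2.23 to 2.96. With unnamed transcripts of the same locus added, the levels were 48.5 and 0 in WT leptotene, 29.9 and 17.3 in WT zygotene, 26.7 and 37.6 in KO leptotene and 30.3 and 38.6 in KO zygotene. Such transcripts were added only where a named one stood in the same library, so the 0 of WT leptotene 2 is not an absence of RNA. Coverage of exon 3 of the 15-exon transcript was 124 in WT leptotene 2. Coverage of exons 12 (chrX:161354991-161355112) and 13 (chrX:161357875-161358064) of its 15-exon transcript, divided by that of exons 11 and 14, was 0.894 and 0.455 in WT leptotene, 0.984 and 1.45 in WT zygotene, 0.182 and 0.0871 in KO leptotene and 0.153 and 0 in KO zygotene. All 4 KO libraries lay below all 4 WT libraries in this ratio. The exons were chosen with the coverage known, so the ratio is a description of the labels and no test is given.

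Joining the stages resolved many more genes than either stage. Of 13723 genes tested, 493 were higher in KO (3.59%) and 1340 lower (9.76%), 1833 in all (13.4%), by limma at an adjusted p under 0.05. At leptotene 343 genes were called (2.5%) and at zygotene 256 (1.87%), from the same 8 libraries with the spread shared between groups. When only the 4 libraries of a stage were used, limma called 0 at either stage, with 2421 (leptotene) and 2243 (zygotene) genes at an unadjusted p under 0.05. The median standard error of a log2 difference was 0.398 over both stages and 0.569 at a single stage. The smallest difference called was 1.45-fold over both stages, 2.34-fold at leptotene and 2.70-fold at zygotene.

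Of the 1833 genes, 1442 were called at neither stage (10.5% of the tested genes and 78.7% of the called), and the moderate ones among them number 920, with 395 higher and 525 lower. By size, 206 of 207 genes called between 1.5- and 2-fold were resolved only over both stages, 714 of 759 between 2- and 4-fold, and 511 of 856 above 4-fold. The threshold makes this division: 1022 of the 1442 had an unadjusted p under 0.05 at both stages, and 527 had an adjusted p under 0.1 at 1 stage or both. The 4 KO and 4 WT libraries did not overlap for 821 of the 920 moderate genes, beside 19.7% of all tested genes. The 920 were called from these same libraries, which favours such a gap, so the count is a description only. Among the genes that rose the smaller sizes prevailed, with 150 of 493 between 1.5- and 2-fold and 65 above 4-fold. Among those that fell, 57 of 1340 lay between 1.5- and 2-fold and 791 above 4-fold.

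**Figure D1:**
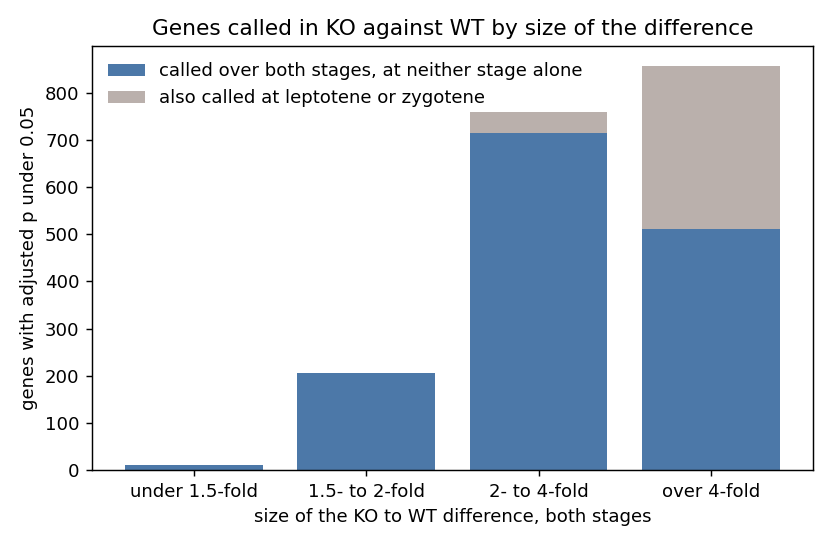
Genes called in KO against WT (y axis, number of genes) by the size of the difference over both stages (x axis, fold classes), split by whether they were also called at a single stage. Nearly all genes below 4-fold were called only over both stages, 206 of 207 and 714 of 759 between 1.5- and 2-fold and between 2- and 4-fold.

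The balance of higher and lower genes moved with the scaling. Higher genes made 26.9% of the calls, 14.4% with TPM as deposited (273 higher, 1622 lower) and 41.8% after quantile normalization (788 higher, 1099 lower), which shifted the median difference of all genes by -0.10 and 0.23 from its main value of -0.07 on the log2 scale. Leaving out a single library left 178 (without KO zygotene 2) to 383 (without KO zygotene 1) genes higher and 813 (without WT zygotene 2) to 1481 (without KO zygotene 1) lower. The higher count fell by more than 1.5 times without any library other than KO zygotene 1: to 215 without KO leptotene 1, 315 without KO leptotene 2, 320 and 261 without WT leptotene 1 and 2, and 249 and 302 without WT zygotene 1 and 2. The lower count did so without WT leptotene 2 (820), WT zygotene 2 (813) and KO zygotene 2 (831). The moderate genes called at neither stage numbered 350 (without KO zygotene 2) to 805 (without KO zygotene 1), with 558 and 455 without WT leptotene 1 and 2, 430 and 514 without KO leptotene 1 and 2, and 487 and 476 without WT zygotene 1 and 2. With the 2 stages averaged within genotype and replicate number, which leaves 2 values a side, 48 genes were higher and 379 lower. Averaging the stages ended the call of 50 of the 85 named genes called over both stages, limma-voom that of 16, and the addition of unnamed transcripts of the same locus that of 4 (Ankrd26, Grk4, Ret and Klf2). This addition also moved the log2 difference of Spag17, a flagellum gene, to -2.29 and that of Cd3d, a lymphocyte gene, to -3.11. A gene listed at 0 in a library could gain nothing there, which held for Cd3d in all KO libraries. No called gene turned its direction under these scalings or without any 1 library, while 11 did when unnamed transcripts of the same locus were added.

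Of the 31 genes of DNA replication, 8 rose in KO over both stages, among them subunits of the helicase and its loader. In bulk RNA, fewer cells of a type and less RNA per cell cannot be told apart. Mcm2 (chr6:88883474-88898780) stood at 26.4 and 26.3 in WT leptotene, 21.5 and 26.8 in WT zygotene, 80.5 and 57.3 in KO leptotene and 56.9 and 63.5 in KO zygotene. The lowest KO library was above the highest WT library, and the estimated rise was 2.48-fold (log2 fold change 1.31 ± 0.18, adjusted p = 0.00313). Rpa2 (chr4:132768332-132778752) stood at 17.9 and 17.5 in WT leptotene, 17.9 and 11.1 in WT zygotene, 63.9 and 46.4 in KO leptotene and 45.5 and 53.6 in KO zygotene, a rise of 3.15-fold without overlap of the genotypes (log2 fold change 1.65 ± 0.21, adjusted p = 0.00271). Its adjusted p was 0.0564 at leptotene and 0.0508 at zygotene, just outside the threshold at each. The partner subunits of RPA, named outside the rule after their values were seen, had log2 differences of -0.11 ± 0.21 (Rpa1) and 0.78 ± 0.35 (Rpa3) and did not pass (adjusted p = 0.793 and 0.193).

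Cdt1 (chr8:122568015-122573554) had levels of 5.63 and 7.02 in WT leptotene, 7.06 and 0.0624 in WT zygotene, 50.8 and 40.4 in KO leptotene and 25.05 and 35.8 in KO zygotene. WT zygotene 2 stood far below the other WT libraries. Cdt1 rose from 4.94 ± 3.32 in WT to 38.01 ± 10.7 in KO (SD, n = 4) (log2 fold change 3.04 ± 0.57, adjusted p = 0.0122). The difference was 1.84 (log2) with unnamed transcripts of the locus added, and the call was lost by limma-voom (adjusted p = 0.0808) and with a pseudocount of 0.1 (adjusted p = 0.0648). Cdca7 (chr2:72476159-72486893) was 11.01 and 12.04 in WT leptotene, 8.56 and 12.2 in WT zygotene, 41.3 and 29.5 in KO leptotene and 26.5 and 39.03 in KO zygotene, 2.91-fold higher in KO (log2 fold change 1.54 ± 0.23, adjusted p = 0.00461). Ung, the uracil-DNA glycosylase that clears uracil from new DNA, was 11.1 and 14.9 in WT leptotene, 7.93 and 12.8 in WT zygotene, 43.1 and 26.9 in KO leptotene and 26.3 and 30.2 in KO zygotene. Ung changed by 1.37 ± 0.25 (log2, adjusted p = 0.0103). For both genes every KO library exceeded every WT library. Cdca7 is in none of the lists and Rpa2 is in the recombination list, so the 8 genes of the replication list that rose were Mcm2, Cdt1, Ung and 5 more: Mcm6, Mcm7, Gmnn, Tyms and Uhrf1, named after their values were seen, with log2 differences of 0.78 ± 0.21, 0.70 ± 0.17, 0.82 ± 0.21, 1.65 ± 0.44 and 0.62 ± 0.16. The list as a whole had a median of 0.41 beside -0.07 for all genes, 0 of its 31 genes fell, and 8 called make 25.8% of it beside 13.4% of all genes. Its count of genes that rose was 3 without KO leptotene 1, KO leptotene 2, KO zygotene 2 or WT zygotene 1, 5 without WT leptotene 2 and 4 without WT zygotene 2, 3 with TPM as deposited, 5 with a pseudocount of 0.1 and 1 with the stages averaged.

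**Figure D2:**
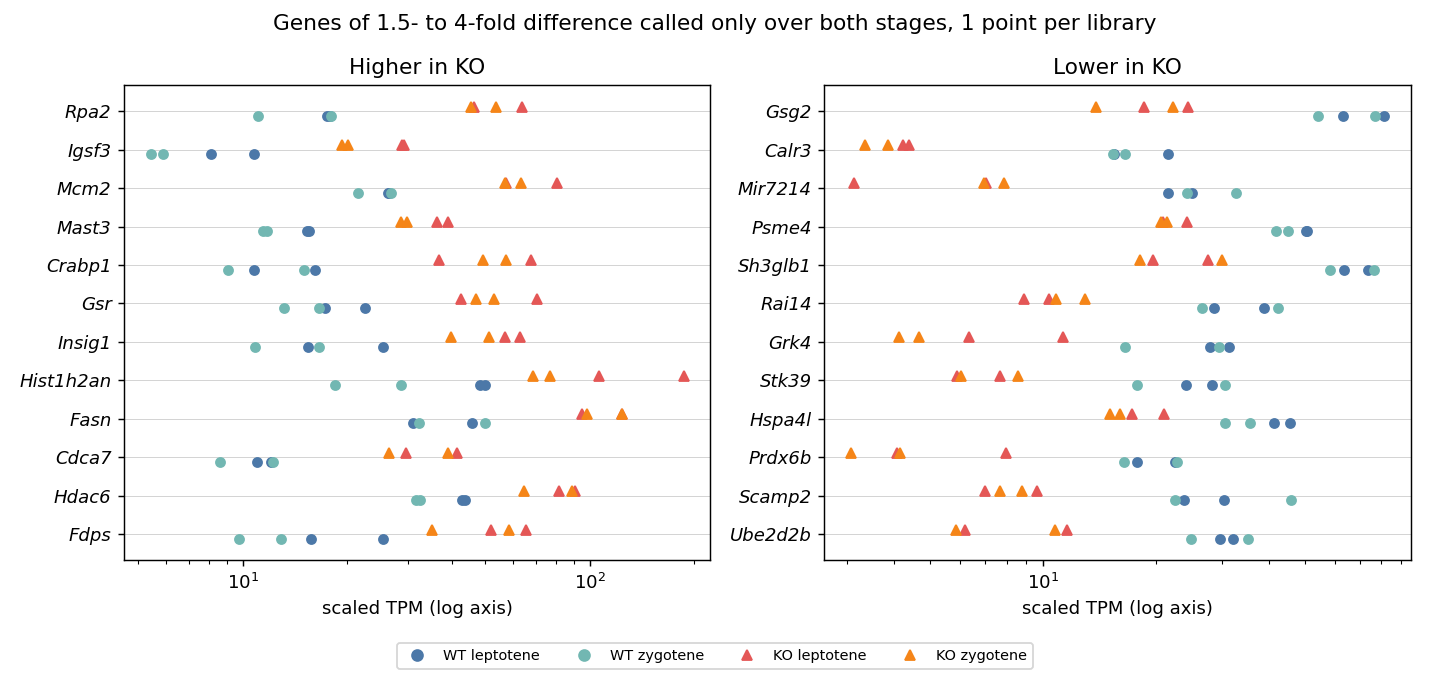
Scaled TPM (x axis, log scale) of the 12 moderate genes with the smallest p that rose and the 12 that fell, 1 point per library, with WT as circles and KO as triangles. Both stages of a genotype lie together and the genotypes do not overlap, which the naming rule required.

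Of 68 histone cluster genes 67 were tested, 47 rose, 27 of them only over both stages, and 0 fell, beside 3.59% of all genes that rose, with a median log2 difference of 1.39. With TPM as deposited 40 rose and 1 fell. At leptotene 11 and at zygotene 19 passed. Hist1h2an (chr13:21786826-21787218), an H2A gene, was 48.2 and 49.9 in WT leptotene, 28.5 and 18.4 in WT zygotene, 187 and 106 in KO leptotene and 68.6 and 76.7 in KO zygotene. Hist1h2an changed by 1.56 ± 0.22 (log2, adjusted p = 0.00409). WT leptotene exceeded WT zygotene, and KO exceeded WT within each stage. Among those past the threshold at both stages, Hist1h3i was 21.6 ± 7.72 in WT and 102 ± 16.4 in KO (SD, n = 4, 2.24 ± 0.19 log2), Hist1h3h 66.8 ± 8.54 in WT and 266 ± 69.6 in KO (1.95 ± 0.18 log2) and Hist1h3b 29.5 ± 13.4 in WT and 154 ± 54.5 in KO (2.41 ± 0.26 log2). Hist2h3c1 was among the 5 largest rises of genes above 0 in every library, from 4.27, 8.26, 4.26 and 0.155 in WT to 63.8, 38.7, 41.7 and 49.0 in KO (log2 fold change 3.54 ± 0.53, adjusted p = 0.00461). Copies of histone genes are near identical, so the level of each single copy is uncertain. Summed over the list, the levels were 13488 and 9844 in WT leptotene, 6993 and 4710.3 in WT zygotene, 21214 and 18221 in KO leptotene and 12378 and 13840.0 in KO zygotene. KO was thus above WT at both stages, while KO zygotene overlapped WT leptotene. Between 34 and 44 of the genes rose when a single library was left out, and 18, with 1 that fell, when the stages were averaged.

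H2afx, the histone variant phosphorylated at DNA breaks, was 682 and 485 in WT leptotene, 291 and 244 in WT zygotene, 975 and 1069.6 in KO leptotene and 506 and 752 in KO zygotene. H2afx changed by 1.02 ± 0.21 (log2, adjusted p = 0.0155). KO leptotene and KO zygotene each exceeded WT of the same stage, but KO zygotene 1 lay between the WT leptotene libraries, and the call was lost without WT zygotene 2. It was the 1 gene of 16 tested for DNA damage signalling and sex chromosome silencing that passed. This is 6.25% beside 3.59% of all genes that rose and 13.4% called, and the median of that list was 0.55.

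Of 25 genes of mitotic kinases, cyclins and the spindle checkpoint tested, 4 rose, each only over both stages, and the median was 0.16. This is 16% beside 3.59% of all genes that rose and 13.4% called. Ccna2, the cyclin of S phase and G2, was 8.61 and 12.98 in WT leptotene, 5.86 and 9.06 in WT zygotene, 23.2 and 20.2 in KO leptotene and 16.6 and 21.6 in KO zygotene, Aurkb, the Aurora kinase of the chromosomal passenger complex, was 12.5 ± 6.03 in WT and 36.4 ± 6.85 in KO (SD, n = 4), and Ccnb1, the mitotic cyclin, was 15.6 ± 0.983 in WT and 30.8 ± 7.405 in KO. Their log2 differences were 1.12 ± 0.25, 1.61 ± 0.38 and 0.90 ± 0.22, with adjusted p of 0.0245, 0.0277 and 0.0322. The count depended on single libraries: 0 rose without WT leptotene 1, KO leptotene 1 or KO zygotene 2, 1 without WT zygotene 1, and 2 without each of the other 4.

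Of 15 differentiating spermatogonia genes tested 7 rose and 1 fell (median 1.17), and of 11 undifferentiated ones 3 rose and 0 fell (median 1.27), beside 3.59% of all genes that rose. The other 7 differentiating and 8 undifferentiated genes did not pass. Kit (chr5:75574916-75656722), the receptor that marks differentiating spermatogonia, was 19.9 and 21.4 in WT leptotene, 11.6 and 15.6 in WT zygotene, 41.5 and 47.2 in KO leptotene and 33.7 and 43.4 in KO zygotene. Each KO library exceeded each WT library, and the rise was 2.38-fold (log2 fold change 1.25 ± 0.20, adjusted p = 0.00592). Crabp1 (chr9:54764748-54773110), a retinoic acid binding protein, was 10.8 and 16.1 in WT leptotene, 9.04 and 15.1 in WT zygotene, 67.8 and 36.7 in KO leptotene and 49.3 and 57.4 in KO zygotene, a 3.92-fold rise (log2 fold change 1.97 ± 0.27, adjusted p = 0.00354). Dnmt3b, a DNA methyltransferase, was 0.315 and 0.841 in WT leptotene, 3.204 and 2.95 in WT zygotene, 23.5 and 19.2 in KO leptotene and 22.5 and 24.7 in KO zygotene. Dnmt3b changed by 3.22 ± 0.35 (log2, adjusted p = 0.00155). It passed at both stages, while Kit and Crabp1 passed only over both. With unnamed transcripts of the locus added, its log2 difference was 1.01.

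Zbtb16, the transcription factor PLZF of spermatogonial stem cells, rose from 9.21 ± 1.05 in WT to 38.7 ± 14.05 in KO (SD, n = 4) (log2 fold change 1.91 ± 0.27, adjusted p = 0.00371), with a log2 difference of 0.99 when unnamed transcripts of the locus were added. Sohlh1, a helix-loop-helix factor of spermatogonia, was 4.59 and 9.77 in WT leptotene, 3.62 and 8.45 in WT zygotene, 52.7 and 32 in KO leptotene and 16.6 and 40.1 in KO zygotene. Sohlh1 changed by 2.23 ± 0.40 (log2, adjusted p = 0.0101). Ret, the receptor for the niche factor GDNF, was 0 and 5.05 in WT leptotene, 0 and 2.68 in WT zygotene, 14.4 and 12.5 in KO leptotene and 10.3 and 9.37 in KO zygotene. Ret changed by 2.52 ± 0.63 (log2, adjusted p = 0.0348). All 4 KO libraries exceeded all 4 WT libraries for these genes. Ret did not pass when any 1 of 6 libraries was left out, all but WT leptotene 2 and WT zygotene 2. The gene that fell among the differentiating list was Dmrtb1, which coordinates the move from mitosis to meiosis, at 61.6 and 84.9 in WT leptotene, 45.6 and 76.9 in WT zygotene, 42.2 and 29.8 in KO leptotene and 34.1 and 28.1 in KO zygotene. Dmrtb1 changed by -0.96 ± 0.23 (log2, adjusted p = 0.0291). Its call was lost without WT leptotene 2, KO leptotene 2, WT zygotene 2 or KO zygotene 2. Without KO leptotene 1, WT leptotene 2 or KO zygotene 2 the differentiating genes that rose numbered 4, without WT zygotene 1 they numbered 3, and without KO leptotene 2 the number was 5. The undifferentiated genes that rose numbered 2 or 3 without any 1 library. The summed level of the differentiating list was 346 to 449.6 in the WT libraries and 599 to 682 in the KO libraries, which did not overlap.

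Insig1 (chr5:28071363-28078662), which holds the sterol sensor in the endoplasmic reticulum, was 15.4 and 25.3 in WT leptotene, 10.8 and 16.5 in WT zygotene, 62.9 and 56.98 in KO leptotene and 39.9 and 51.2 in KO zygotene. Insig1 changed by 1.62 ± 0.23 (log2, adjusted p = 0.00382). Fdps (chr3:89093588-89101959), an enzyme of the isoprenoid and cholesterol pathway, was 15.8 and 25.4 in WT leptotene, 9.73 and 12.9 in WT zygotene, 65.4 and 51.99 in KO leptotene and 35.05 and 58.3 in KO zygotene. Fdps changed by 1.71 ± 0.26 (log2, adjusted p = 0.00474). Fasn (chr11:120805846-120824547), the fatty acid synthase, was 30.95 and 45.8 in WT leptotene, 32.2 and 49.7 in WT zygotene, 124 and 95.2 in KO leptotene and 98.2 and 124 in KO zygotene. Fasn changed by 1.47 ± 0.21 (log2, adjusted p = 0.00422). These 3 genes rose between 2.77- and 3.27-fold without overlap of the genotypes, and at neither stage did any of them pass on its own.

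Gsr, the glutathione reductase, rose from 17.4 ± 3.86 in WT to 53.2 ± 12.1 in KO (SD, n = 4) (log2 fold change 1.56 ± 0.22, adjusted p = 0.00376). Hdac6, an X-linked tubulin deacetylase, was 43.6 and 42.9 in WT leptotene, 31.5 and 32.5 in WT zygotene, 81.5 and 90.8 in KO leptotene and 64.8 and 88.7 in KO zygotene. Hdac6 changed by 1.10 ± 0.16 (log2, adjusted p = 0.00461). Mast3, a kinase linked to microtubules, rose from 13.5 ± 2.22 in WT to 33.5 ± 5.12 in KO (log2 fold change 1.25 ± 0.17, adjusted p = 0.00326), and Igsf3, an immunoglobulin-like membrane protein, rose from 7.55 ± 2.45 in WT to 24.3 ± 5.34 in KO (log2 fold change 1.59 ± 0.21, adjusted p = 0.00287). Ankrd26, an ankyrin repeat protein, was 0.226 to 0.398 in WT and 5.04 to 9.94 in KO (log2 fold change 2.62 ± 0.33, adjusted p = 0.00267). It was among the 5 largest rises of genes above 0 in every library, but with unnamed transcripts of the locus added its log2 difference was 0.44 and the call was lost (adjusted p = 0.388).

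Of 27 genes of the LSD1-CoREST, NuRD and SIN3 complexes, 3 rose and 1 fell, 14.8% beside the background of 13.4%. Rcor2, a CoREST scaffold, was 13.5 and 15.3 in WT leptotene, 10.6 and 16.5 in WT zygotene, 50.3 and 35.7 in KO leptotene and 28.3 and 44.5 in KO zygotene. Rcor2 changed by 1.43 ± 0.24 (log2, adjusted p = 0.00772). Its relative Rcor3 went the opposite way, at 18.99 and 20.7 in WT leptotene, 14.9 and 21.7 in WT zygotene, 3.36 and 2.81 in KO leptotene and 6.05 and 5.71 in KO zygotene. Rcor3 changed by -1.91 ± 0.29 (log2, adjusted p = 0.00499), and passed at leptotene. Hdac2, the histone deacetylase shared by these complexes, rose from 21.3 ± 3.23 in WT to 40.7 ± 8.16 in KO (SD, n = 4, adjusted p = 0.0275), and Sap18, a SIN3 component, rose from 9.28 ± 2.69 in WT to 19.3 ± 1.63 in KO (adjusted p = 0.0351). The last 2 calls were each lost when any 1 of at least 5 libraries was left out. Of 20 genes of H3K9 methylation and heterochromatin 2 rose, 10% beside 3.59% of all genes that rose and 13.4% called. Uhrf1, the maintenance methylation factor, rose from 42.7 ± 6.89 in WT to 65.6 ± 5.93 in KO, a call lost when any 1 library was left out. Morc1, a silencer of transposons, was 0 and 0.803 in WT leptotene, 0 and 0 in WT zygotene, 11.2 and 10.2 in KO leptotene and 7.15 and 8.52 in KO zygotene. Morc1 changed by 3.13 ± 0.33 (log2, adjusted p = 0.00137). Of 7 BEN domain genes limma called 0, with 2 at an unadjusted p under 0.05 and 0 by limma-voom, and the most abundant, Nacc1, was 15.6 ± 3.98 in WT and 23.3 ± 4.401 in KO (SD, n = 4, log2 difference 0.57 ± 0.24, adjusted p = 0.17). Over both stages 3795 of all 13723 tested genes had an unadjusted p under 0.05 by limma, so 2 of 7 do not set the BEN domain genes apart.

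Cdkn2a, which encodes inhibitors of the cell cycle, and Bax, a mitochondrial effector of apoptosis, were the genes of the p53 and cell death list that rose. These were 2 of 22 tested and 0 fell, which is 9.09% beside 3.59% of all genes that rose and 13.4% called. Cdkn2a (chr4:89274471-89294653) was 9.67 and 11.9 in WT leptotene, 10.1 and 7.83 in WT zygotene, 60.9 and 39.2 in KO leptotene and 39.4 and 39.5 in KO zygotene, a rise of 4.17-fold that passed at both stages (log2 fold change 2.06 ± 0.21, adjusted p = 0.00124). Bax was 17.5 and 26.2 in WT leptotene, 19.8 and 32.8 in WT zygotene, 58.6 and 43.5 in KO leptotene and 56.01 and 48.4 in KO zygotene and was resolved only over both stages (log2 fold change 1.10 ± 0.23, adjusted p = 0.0184). It did not pass without KO leptotene 1 or without WT zygotene 1. The list's median was 0.04.

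In the piRNA pathway, which silences transposons in the germ line, 2 of 22 genes rose and 2 fell, which is 18.2% called beside 13.4% of all genes. Mov10l1 (chr15:88982909-89055152), the helicase that starts piRNA production, was 23.1 and 19.9 in WT leptotene, 18.8 and 22.9 in WT zygotene, 85.1 and 93.4 in KO leptotene and 75.9 and 94.2 in KO zygotene, 3.97-fold higher in KO and past the threshold at each stage (log2 fold change 1.99 ± 0.16, adjusted p = 0.000943). Fkbp6, a germ cell immunophilin that also belongs to the synapsis list, was 54.2 and 50.9 in WT leptotene, 43.6 and 34.6 in WT zygotene, 123 and 84.3 in KO leptotene and 81.9 and 90.3 in KO zygotene and passed only over both stages (log2 fold change 1.03 ± 0.18, adjusted p = 0.00803). Piwil1, the PIWI protein of pachytene cells, was 21.9 and 23.1 in WT leptotene, 16.8 and 30.9 in WT zygotene, 11.6 and 7.06 in KO leptotene and 7.03 and 1.41 in KO zygotene. Piwil1 changed by -1.83 ± 0.46 (log2, adjusted p = 0.0361). Tdrd6, a chromatoid body scaffold, was 23.5 and 27.1 in WT leptotene, 18.2 and 35.8 in WT zygotene, 10.3 and 2.68 in KO leptotene and 11.7 and 3.14 in KO zygotene. Tdrd6 changed by -1.95 ± 0.48 (log2, adjusted p = 0.0322). The KO libraries lay below the WT libraries for both, and each call was lost without any 1 of 5 or more libraries. With unnamed transcripts of the locus added, the log2 difference was 0.70 for Mov10l1 and -1.09 for Piwil1.

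Of 75 ribosomal protein genes tested, 6 rose (8.0%), each only over both stages, 0 fell, and the median was 0.36. Rpl14, of the large subunit, was 71.7 and 66.2 in WT leptotene, 78.3 and 74.4 in WT zygotene, 173 and 109 in KO leptotene and 149 and 182 in KO zygotene. Rpl14 changed by 1.04 ± 0.18 (log2, adjusted p = 0.00876). Rps3a1 rose from 126 ± 8.55 in WT to 237 ± 51.8 in KO (SD, n = 4) and Rpl27 from 70.8 ± 12.5 in WT to 128 ± 21.3 in KO, with log2 differences of 0.88 ± 0.18 and 0.84 ± 0.18. All of these calls were rises, beside 3.59% of all genes that rose and 13.4% called in either direction. The 6 became 1 without KO zygotene 2 or WT leptotene 2, 2 without KO leptotene 1 or WT zygotene 1, 3 without WT leptotene 1, 4 without WT zygotene 2, 9 without KO leptotene 2, 3 with TPM as deposited and 0 with the stages averaged.

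Most genes of the meiotic chromosome programme did not pass even with 4 libraries a side. Of 10 genes of the break formation list limma called 0, with 1 at an unadjusted p under 0.05 and 0 by limma-voom. Of all 13723 tested genes 3795 had an unadjusted p under 0.05 by limma. The 31 recombination genes had a single call, the rise of Rpa2 (3.23% beside 3.59% of all genes that rose and 13.4% called). The most abundant member of that break formation list was Zcwpw1, which reads the marks placed by Prdm9 and is not itself known to form breaks. Zcwpw1 was 130.2 and 48.4 in WT leptotene, 72 and 29.6 in WT zygotene, 77.98 and 126 in KO leptotene and 43.6 and 88.2 in KO zygotene, with a 95% confidence interval of the log2 difference of -0.58 to 1.31. For 2 textbook markers of these stages, named outside the rule, the interval was -0.70 to 0.52 for Sycp3, an axis protein at 83.1 ± 25.6 in WT and 78.2 ± 21.97 in KO (SD, n = 4), and -0.69 to 0.89 for Dmc1, the meiotic recombinase at 16.3 ± 10.2 in WT and 15.5 ± 4.55 in KO. Both markers were above 0 in all 8 libraries. These intervals include changes of over 1.5-fold in at least 1 direction, so moderate differences in them were not resolved, and it was not shown that there were none.

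Of 16 synaptonemal complex and axis genes, Fkbp6 rose and Syce1 fell, which is 12.5% called beside 13.4% of all genes. Syce1, a central element protein of the synaptonemal complex, was 98.8 and 76.5 in WT leptotene, 66.8 and 65.9 in WT zygotene, 51.5 and 44.01 in KO leptotene and 26.2 and 21.9 in KO zygotene (log2 fold change -1.14 ± 0.19, adjusted p = 0.00727), with every KO library below every WT library. Of 13 genes of meiotic entry 1 rose, Taf7l, an X-linked germ cell TFIID subunit, at 92.6 and 52.3 in WT leptotene, 51.2 and 37.2 in WT zygotene, 142 and 86.02 in KO leptotene and 110.5 and 110.3 in KO zygotene. This call is 7.69% of the list, beside 3.59% of all genes that rose and 13.4% called. Taf7l changed by 0.99 ± 0.27 (log2, adjusted p = 0.0453). KO leptotene 2 overlapped the WT range, and the call was lost when any 1 of 6 libraries was left out. Stra8, the retinoic acid target that licenses meiosis, named outside the rule, was 57.5 and 57.9 in WT leptotene, 39.3 and 17.4 in WT zygotene, 107 and 69 in KO leptotene and 84.3 and 99.6 in KO zygotene. Its libraries did not overlap, and it missed the threshold (log2 fold change 1.17 ± 0.34, adjusted p = 0.0568).

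Gsg2 (chr11:73135485-73138294), the histone kinase haspin, was 63.05 and 81.2 in WT leptotene, 54.3 and 77.03 in WT zygotene, 24.3 and 18.6 in KO leptotene and 22.2 and 13.8 in KO zygotene, a fall of 3.39-fold without overlap (log2 fold change -1.76 ± 0.22, adjusted p = 0.00255). Calr3 (chr8:72424176-72443870), a calreticulin chaperone of the testis, was 15.4 and 21.6 in WT leptotene, 15.4 and 16.5 in WT zygotene, 4.38 and 4.22 in KO leptotene and 3.86 and 3.35 in KO zygotene. Calr3 changed by -1.87 ± 0.25 (log2, adjusted p = 0.00308). Psme4 (chr11:30771726-30880361), the proteasome activator PA200, was 50.5 and 50.4 in WT leptotene, 41.9 and 44.96 in WT zygotene, 20.9 and 24.2 in KO leptotene and 21.4 and 20.7 in KO zygotene. Psme4 changed by -1.07 ± 0.16 (log2, adjusted p = 0.00437). At 2.102-fold, Psme4 was the smallest of the 12 named falls.

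Hspa4l, a large heat shock protein, fell from 38.3 ± 6.54 in WT to 17.4 ± 2.59 in KO (SD, n = 4) (log2 fold change -1.09 ± 0.17, adjusted p = 0.00594). Sh3glb1, a membrane-bending endophilin, fell from 67.9 ± 8.42 in WT to 23.9 ± 5.85 in KO, and Rai14, an actin-binding ankyrin protein, from 34.1 ± 7.69 in WT to 10.8 ± 1.66 in KO, by 2.81- and 2.95-fold. The kinases Grk4, which acts on G protein-coupled receptors, and Stk39, which acts on ion transporters, fell by 3.70- and 3.22-fold. The Grk4 call was lost with unnamed transcripts of the locus added (adjusted p = 0.131). Prdx6b, a peroxiredoxin, fell from 19.9 ± 3.22 in WT to 4.83 ± 2.15 in KO, Scamp2, a carrier membrane protein, from 30.7 ± 10.8 in WT to 8.28 ± 1.19 in KO, and Ube2d2b, a ubiquitin-conjugating enzyme, from 30.5 ± 4.36 in WT to 8.62 ± 3.0 in KO. With such transcripts added Scamp2 fell by 0.71 on the log2 scale. All of these were resolved only over both stages, with adjusted p between 0.00437 (Sh3glb1) and 0.00628 (Scamp2 and Ube2d2b). The remaining named fall was Mir7214, an annotated miRNA locus at chr17:27317035-27317095, which stood at 25.9 ± 4.804 in WT and 6.25 ± 2.12 in KO (SD, n = 4), where reads of an overlapping transcript cannot be told apart from the locus. By limma-voom the calls of Mir7214 (adjusted p = 0.0846) and Scamp2 (adjusted p = 0.0513) were lost.

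Of 30 pachytene genes 17 fell, 11 of them only over both stages, and 0 rose (median -1.63). Of 28 round spermatid genes 21 fell, 13 only over both stages (median -2.13), and of 25 sperm flagellum genes 18 fell, 7 only over both stages (median -2.80), beside 9.76% of all genes that fell. Pgk2, the glycolytic kinase of late spermatocytes and sperm, was 78.9 and 127 in WT leptotene, 74.4 and 105 in WT zygotene, 13.5 and 6.29 in KO leptotene and 12.6 and 5.56 in KO zygotene. Pgk2 changed by -3.27 ± 0.33 (log2, adjusted p = 0.00112). Fabp9, a lipid-binding protein of the sperm head, fell from 215 ± 39.5 in WT to 13.8 ± 8.22 in KO (SD, n = 4), and Meig1, a manchette-associated protein needed for spermatid shaping, from 101 ± 23.1 in WT to 10.9 ± 5.82 in KO.

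Tnp1 (chr1:73015074-73015909), which packs spermatid DNA once histones leave, was 550.1 and 1008 in WT leptotene, 543 and 667 in WT zygotene, 48.6 and 27.6 in KO leptotene and 60.6 and 19.6 in KO zygotene. Tnp1 changed by -4.19 ± 0.37 (log2, adjusted p = 0.000951). Cabs1, a calcium-binding protein of elongating spermatids, was 49.1 to 96.5 in WT and 2.12 to 3.52 in KO. Dnah17, an outer arm dynein heavy chain of the flagellum, was 21.6 to 36.5 in WT and listed at 0 in all 4 KO libraries, as was Cfap65, a flagellum protein at 20.1 to 31.9 in WT, and Dpy19l2, which anchors the acrosome, at 7.71 to 13.1 in WT. Spag17, of the central apparatus, was 12.7 to 20.1 in WT and 0.0253 to 0.0644 in KO. In all, 177 called genes were listed at 0 in every KO library and 8 in every WT library.

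The summed level of the round spermatid list was 4814 to 9987 in the WT libraries and 684 to 1749 in the KO libraries. The pachytene list summed to 1987 to 3148 in WT and 779 to 1033 in KO, and the flagellum list to 863 to 1254 in WT and 121 to 233 in KO. No KO library overlapped a WT library in any of the 3 sums. These genes are known from cells later than leptotene and zygotene, their levels moved with genotype in all 8 libraries, and their part in the other differences was not tested. Of these lists, 10 pachytene genes fell without WT zygotene 2 and 11 without WT leptotene 2, and 14 round spermatid genes without WT leptotene 2. With the stages averaged, 8 pachytene, 8 round spermatid and 14 flagellum genes fell.

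**Figure D3:**
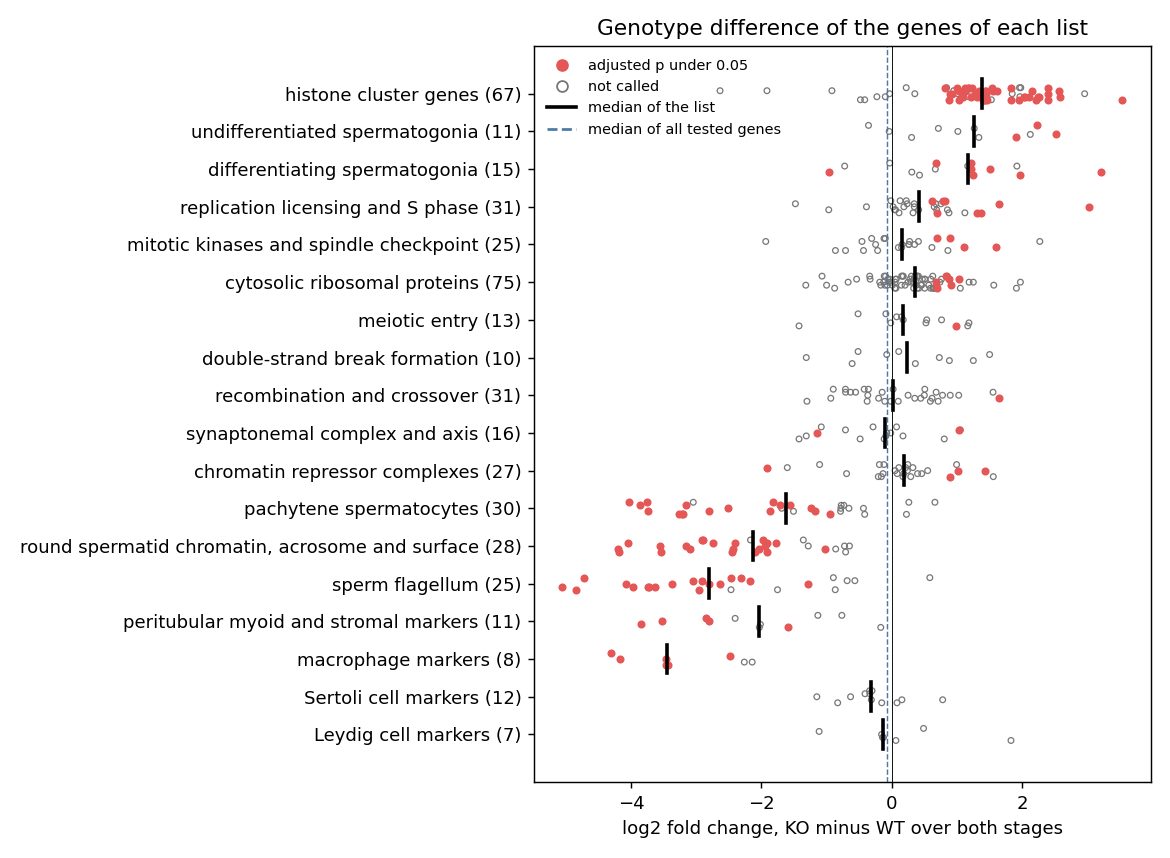
Log2 difference of KO minus WT over both stages (x axis) for each tested gene of 18 lists (y axis, number of genes in brackets), filled where the adjusted p was under 0.05, with the median of each list as a bar and that of all genes as a dashed line. The medians of the histone, spermatogonia and replication lists lie to the right, at 1.39, 1.27, 1.17 and 0.41, and those of the lists of later germ cells, macrophages and stroma to the left, between -3.45 and -1.63.

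Of 8 macrophage genes 6 fell, each only over both stages (median -3.45), and of 11 peritubular myoid and stromal genes 5 fell, 3 only over both stages (median -2.03), beside 9.76% of all genes that fell. Aif1 was 69.5 and 91.7 in WT leptotene, 62.95 and 88.5 in WT zygotene, 12.6 and 12.6 in KO leptotene and 24.3 and 7.195 in KO zygotene. Aif1 changed by -2.48 ± 0.34 (log2, adjusted p = 0.0034). It is known from macrophages. Lyz2, the macrophage lysozyme, was 20.1 and 108 in WT leptotene, 28.1 and 174 in WT zygotene, 3.24 and 2.21 in KO leptotene and 2.34 and 1.48 in KO zygotene (log2 fold change -4.17 ± 0.67, adjusted p = 0.00628), with the higher WT levels in the libraries with the larger unnamed share. By limma-voom the calls of Lyz2 (adjusted p = 0.175) and C1qb (adjusted p = 0.0518) were lost. C1qb, a complement component made by macrophages, was 8.205 to 70.2 in WT and 0 to 0.754 in KO. The 15 macrophage markers summed to 107 and 425 in WT leptotene, 138 and 671 in WT zygotene, 18.7 and 16.7 in KO leptotene and 37.8 and 29.7 in KO zygotene, and 8 to 10 of the 14 with a value were listed at 0 in a KO library against 1 to 4 in a WT library.

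Mgp, an inhibitor of calcification from stromal cells, was 36.9 and 76.6 in WT leptotene, 99.03 and 128 in WT zygotene, 1.09 and 3.82 in KO leptotene and 28.5 and 6.07 in KO zygotene. Mgp changed by -3.53 ± 0.52 (log2, adjusted p = 0.00461). The collagen gene Col3a1 was 20.4 and 32.8 in WT leptotene, 45.8 and 50.8 in WT zygotene, 0.132 and 0.0331 in KO leptotene and 21.4 and 0.539 in KO zygotene (log2 fold change -3.85 ± 0.77, adjusted p = 0.0151), where KO zygotene 1 lay at the lower edge of the WT range and far above the other KO libraries, and its call was lost without WT leptotene 2. Col1a2 was 1.31 to 4.65 in WT and 0.0265 to 0.636 in KO. Serping1, a serine protease inhibitor of complement, had the largest fall among genes above 0 in all 8 libraries that the naming rule covers, at 51.5 and 159 in WT leptotene, 77.3 and 72.5 in WT zygotene, 1.55 and 0.254 in KO leptotene and 10.6 and 0.0688 in KO zygotene. Serping1 changed by -5.05 ± 0.75 (log2, adjusted p = 0.00452). Ctgf, a matrix-associated growth factor, was 35.4 and 134 in WT leptotene, 119.6 and 179 in WT zygotene, 0.112 and 2.001 in KO leptotene and 34.2 and 9.42 in KO zygotene. With unnamed transcripts of the locus added the log2 differences were -1.98 (Col3a1), -2.58 (Col1a2) and -3.44 (Serping1), and by limma-voom the call of Ctgf was lost (adjusted p = 0.0833). The stromal list summed to 273 to 896 in WT and to 25.8, 33.5, 565 and 103 in KO leptotene 1 and 2 and KO zygotene 1 and 2, so KO zygotene 1 lay within the WT range. Without KO zygotene 1 8 stromal genes fell, and without WT leptotene 2 there were 2. Without any 1 of KO leptotene 1, KO leptotene 2, KO zygotene 2, WT leptotene 1 or WT zygotene 2 there were 3. Of the macrophage genes, 4 fell without KO leptotene 1, KO zygotene 2 or WT leptotene 2, and 1 with the stages averaged.

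Of 12 Sertoli and 7 Leydig cell genes limma and limma-voom called 0, with 0 and 2 at an unadjusted p under 0.05. Such counts stand beside 3795 of all 13723 tested genes at an unadjusted p under 0.05 by limma. Clu, abundant in Sertoli cells, was 116 ± 43.8 in WT and 102 ± 26.6 in KO (SD, n = 4) and Insl3, the Leydig hormone, 73.3 ± 47.5 in WT and 92.8 ± 46.4 in KO, with 95% confidence intervals of the log2 difference of -0.84 to 0.54 and -0.84 to 1.82. Of 3 lymphocyte genes 1 fell, Cd3d, at 1.06 to 5.04 in WT and listed at 0 in all KO libraries, and of 4 endothelial genes 1 fell, Cdh5, whose call was lost without any 1 of 7 libraries. These are 33.3% and 25% beside 9.76% of all genes that fell, but each rests on 1 gene of a very short list. Of 4 erythroid genes limma and limma-voom called 0, with 0 at an unadjusted p under 0.05. Hba-a1, a haemoglobin chain, was 31.04 and 851 in WT leptotene, 46.2 and 934 in WT zygotene, 285 and 2.47 in KO leptotene and 657 and 1.76 in KO zygotene, high in the 4 libraries with the larger unnamed share and lower in the other 4, whatever the genotype. Of 20 stress and dissociation genes 1 fell, Klf2, from 25.8 ± 11.2 in WT to 9.61 ± 4.84 in KO, a call lost without any 1 of 5 libraries. This is 5% of the stress list beside 9.76% of all genes that fell. The list's median was -1.04, 18 of its 20 genes were below 0, and 8 had an unadjusted p under 0.05. Its sums were 417 and 1695 in WT leptotene, 797 and 2134 in WT zygotene, 573 and 556 in KO leptotene and 811 and 631 in KO zygotene, so the genotypes overlapped. The macrophage, stromal and stress genes were lower in KO by their medians together with the germ cell genes above, and their part in those differences was not tested.

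**Figure D4:**
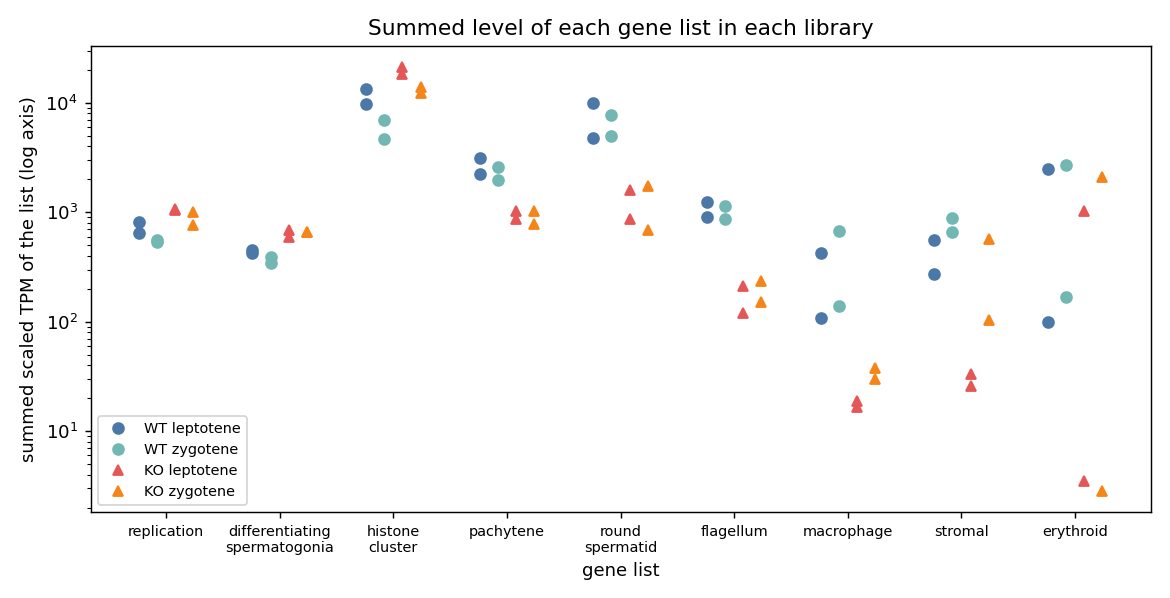
Summed scaled TPM (y axis, log scale) of 9 gene lists (x axis) in each of the 8 libraries, with WT as circles and KO as triangles. The replication and spermatogonia sums are higher in KO at each stage, the pachytene, spermatid, flagellum and macrophage sums are lower in all 4 KO libraries, and the erythroid sums spread over both genotypes.

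On the X chromosome, 14 of 470 tested genes rose and 63 fell, shares of 16.4% called beside 13.4% of all genes, with a median of -0.18 that became 0.12 after quantile normalization. Hdac6 was among the risers, with Sox3, a transcription factor of spermatogonia, from 10.8 ± 2.24 in WT to 32.2 ± 5.54 in KO (SD, n = 4), and Xlr5c, of the Xlr family, from 0.237 ± 0.439 in WT to 4.46 ± 1.78 in KO. Members of the Xlr family are near identical, so the level of Xlr5c is uncertain. The 3 falls with the smallest p were Gm614 and the lincRNAs 1700010D01Rik and 1700003E24Rik, each below 1 scaled TPM in all KO libraries. Of 34 mitochondrially encoded genes 1 fell, mt-Rnr1, the small ribosomal RNA, from 53.5 ± 27.5 in WT to 15.4 ± 8.08 in KO, although KO leptotene 1 lay above WT zygotene 1. This is 2.94% of them beside 9.76% of all genes that fell and 13.4% called.

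Across the 13723 genes, which are not independent replicates, the leptotene and zygotene log2 differences correlated with r = 0.623. They come from different libraries, although the same animals may stand behind both. The median size of the interaction was 0.36 (log2) among the 1833 genes called over both stages. A difference between the stages was called for 2 of 13723 genes (0.0146%), Hist1h2bc and mt-Ta, and 417 genes had an unadjusted interaction p under 0.05. With a median standard error of 0.805 for the interaction, differences of moderate size between stages were not resolvable here.

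Hist1h2bc, an H2B gene, was 93.6 and 44.1 in WT leptotene, 27.8 and 18.5 in WT zygotene, 0 and 0 in KO leptotene and 121 and 96.2 in KO zygotene, with an interaction of 8.23 ± 0.60 (log2, adjusted p = 0.0132). It was lower in KO at leptotene, where both libraries were listed at 0, and higher at zygotene, and it did not pass over both stages (adjusted p = 0.442). Unnamed transcripts of a locus were added only where a named one stood in the same library. The addition therefore cannot test the zeros of Hist1h2bc in KO leptotene. Of 31 genes called at leptotene or zygotene and not over both stages joined, 19 were listed at 0 in both libraries of some group. Among the 31, mt-Ta was called at each stage, in opposite directions. Vprbp, a substrate receptor of a ubiquitin ligase, was 32.9 and 19.6 in WT leptotene, 29.3 and 13.9 in WT zygotene, 0.686 and 0.986 in KO leptotene and 33.6 and 18.2 in KO zygotene, but with unnamed transcripts added 59.2 and 41.3, 41.2 and 41.3, 46.5 and 22.9, and 38.4 and 48.2 in the same order, so that KO leptotene 1 lay within the range of the other groups. Erbin, a scaffold at cell junctions, was listed at 0 in KO zygotene and at 7.22 to 13.9 in WT, and its zeros cannot be tested by the addition either. D8Ertd738e was 8.004 and 16.9 in WT leptotene, 13.9 and 32.3 in WT zygotene, 14.6 and 11.9 in KO leptotene and 0.611 and 1.75 in KO zygotene. Msl3l2 was listed at 0 in WT leptotene and KO zygotene, and Zmat2 in KO leptotene and WT zygotene.

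**Figure D5:**
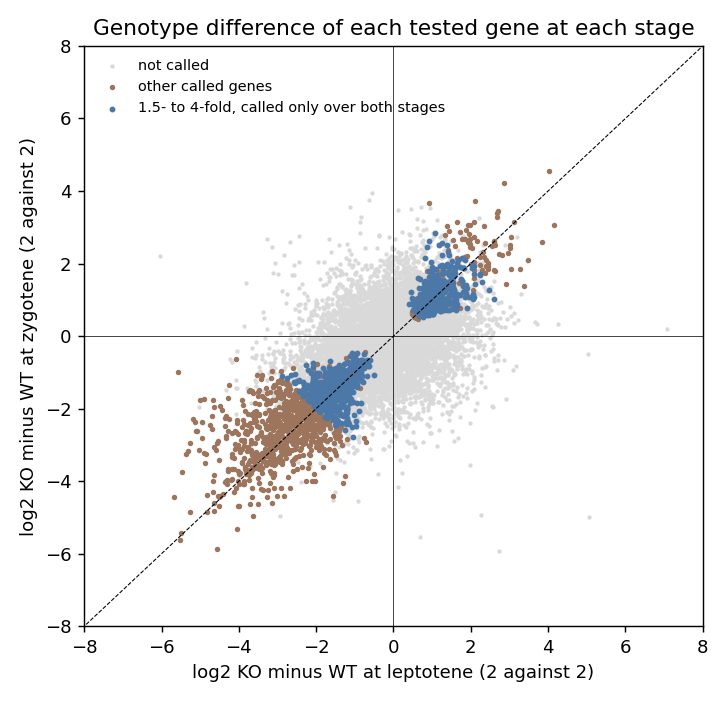
Log2 difference of KO minus WT at zygotene (y axis) against that at leptotene (x axis) for each of 13723 genes, 2 libraries against 2 at each stage. The 920 moderate genes called only over both stages lie on both sides of the diagonal (dashed line). They were chosen by the difference over both stages, which favours the same direction at each.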

How the data were processed

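RNA-seq of sorted spermatocytes was assembled per library with StringTie 2.1.2 guided by Ensembl release 89, per the file headers; HISAT2, mm10 and DESeq2 are named in the submitters' processing notes. TRIzol RNA was made into directional libraries at the same time, per the labels' protocols, but the StringTie commands in the file headers set no strand option, so antisense and overlapping genes are uncertain. The deposited files give coverage, FPKM and TPM of each transcript as the authors' assembler wrote them. The series' design text states 3 replications, and 2 libraries a group were analysed here.

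TPM was summed over the transcripts that name a gene, divided by median-of-ratios factors from 12113 genes above 0 in all 8 libraries, and tested as log2(value + 1) with limma 3.58.1 (R 4.3.3, empirical Bayes with an intensity trend) on stage and genotype, for 13723 genes that reached a TPM of 1 in 4 or more libraries. Fold changes are KO over WT on the log2(value + 1) scale with standard errors, which understates changes of low genes. Adjusted p is Benjamini-Hochberg over all genes tested, called under 0.05, and residual degrees of freedom were 5. Stage differences and the interaction came from a model of 4 group means. The procedure was tested on simulated data. Figures used Python 3.11.15 and matplotlib 3.10.9.

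Named genes were 12 each way among the moderate genes called only over both stages (smallest p, above 0 in all libraries, mean of at least 10, no overlap), up to 3 called members each way of each of 29 lists or the most abundant member, the 5 largest each way above 0 in all libraries, and the genes called in the interaction or at 1 stage only; models without a symbol were left out of all but the lists, and some named genes are not reported here. Members and lists were chosen with earlier results of these data known. Deviations of libraries with the same number correlated at 0.215 for WT leptotene with WT zygotene and at -0.168 to 0.074 for the other 5 pairs of groups, so the numbers were not taken to pair the samples.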

Additional observations from a re-analysis of the deposited data

Results flagged for a closer look

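Among the 85 named genes called over both stages, the 4 WT and the 4 KO libraries of each were searched on the log2 scale for a library far from the other 3, by a gap above Dixon's 95% critical share of the whole range. Of 170 groups 9 were marked, and chance marks about 1 in 20. In WT, Rpa2 was low in WT zygotene 2 (0.943 of the range), Mcm2 in WT zygotene 1 (0.915) and Cdt1 in WT zygotene 2 (0.904), while Morc1 was above 0 only in WT leptotene 2 (1.0) and Xlr5c was high in WT zygotene 2 (0.918). In KO, Mir7214 (0.855) and Ccnb1 (0.929) were low in KO leptotene 2, Cdkn2a was high in KO leptotene 1 (0.982) and Col3a1 was high in KO zygotene 1 (0.870). The genotype difference itself differed between the stages for Hist1h2bc (interaction 8.23 on the log2 scale, adjusted p = 0.0132) and mt-Ta, a mitochondrial tRNA gene (interaction -10.05, adjusted p = 0.00797). Hist1h2bc was listed at 0 in both KO leptotene libraries, and mt-Ta in both WT leptotene and both KO zygotene libraries.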

How the results depend on the processing

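Counts of genes over both stages were 493 higher and 1340 lower, with 920 moderate genes called at neither stage, 343 genes at leptotene, 256 at zygotene and 2 in the interaction. Without any 1 library they ranged from 178 to 383 higher, 813 to 1481 lower, 350 to 805 moderate, 0 to 400 at leptotene, 0 to 7 at zygotene and 0 to 3 in the interaction. Without the filter on low values they were 265, 831, 468, 84, 115 and 1. A filter of TPM of at least 1 in 2 libraries gave 189 at leptotene, and one of at least 5 in 4 libraries 135 at zygotene. A pseudocount of 0.1 gave 537 moderate genes. TPM as deposited gave 273 higher and 432 at zygotene, and quantile normalization 788 higher and 215 at leptotene. limma-voom on estimated reads gave 425 moderate genes and 19 in the interaction. With unnamed transcripts of the same locus added there were 818 higher, 570 at leptotene, 405 at zygotene and 10 in the interaction. Tested against a fold of 1.5, 74 were higher and 628 lower, and with the stages averaged 48 and 379.

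The replicate block gave 364 higher and 1136 lower over both stages, 1 at leptotene and 0 at zygotene; the replicate block within stage gave 224 higher and 893 lower. The numbers mark no shared animal or day in the labels. A crossed replicate block within stage, added after the data were seen, gave 492 higher and 1421 lower. Also added afterwards, the 4 libraries with the smaller unnamed share alone gave 0 higher and 0 lower by limma (3100 at an unadjusted p under 0.05), as did the 4 with the larger share (2474), and the 4 libraries of a stage alone gave 0 at leptotene and 0 at zygotene. The cause of these shifts was not tested, other than fewer samples where libraries were left out.

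No called named gene reversed. Among genes not called, leaving out 1 library moved the log2 difference of Insl3 between -0.013 (without WT leptotene 1) and 0.91, that of Zmat2 between -0.88 and 0.22 (above 0 without WT leptotene 1 or 2 or KO leptotene 1 or 2, at 0.22, 0.20, 0.21 and 0.21), and that of Clu between -0.40 and 0.12 (without WT zygotene 2). That of Gm15262 moved between -0.64 (without WT zygotene 2) and 1.45, with -0.18 without WT leptotene 2 and -0.052 without KO zygotene 2. In the libraries of smaller unnamed share Clu stood at 0.25 and Gm15262 at -1.10. Read depth is unknown, so no counting error is given.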

Other observations

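Of the 12 moderate rises with the smallest p, 3 (Insig1, Fdps and Fasn) belong to sterol and fatty acid synthesis, and a list of 34 genes of these pathways was therefore written after the values were seen. It was chosen for what was noticed and is given as a description. Of 29 members tested, 9 rose, 6 of them only over both stages, and 1 fell, beside 3.59% of all genes that rose and 9.76% that fell, with a median log2 difference of 0.82. The other 19 did not pass. Mvd, the decarboxylase of the mevalonate pathway, rose from 1.298 ± 2.595 in WT to 18.96 ± 6.03 in KO (SD, n = 4) (log2 fold change 3.61 ± 0.60, adjusted p = 0.00719). It was listed at 0 in 3 WT libraries and at 5.19 in WT zygotene 1, and a 0 need not mean that its RNA was absent. Msmo1, a sterol oxidase, rose from 4.58 ± 0.682 in WT to 10.9 ± 2.76 in KO. Srebf2, a transcription factor of sterol synthesis genes, rose from 22.9 ± 3.87 in WT to 52.9 ± 9.15 in KO (log2 fold change 1.17 ± 0.21, adjusted p = 0.00907), and Acly, which supplies cytosolic acetyl-CoA, from 37 ± 5.87 in WT to 79.5 ± 14 in KO. Insig1, Fdps and Fasn were also among the members that rose.

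The pathway was not uniform. Fdft1, the squalene synthase, had a difference of -0.45 ± 0.32 and Cyp51 of 0.21 ± 0.26, and neither passed. Srebf1, the relative of Srebf2, changed by 0.62 ± 0.21 (log2) and did not pass by limma (adjusted p = 0.0958). Me1, a malic enzyme that supplies NADPH for lipid synthesis, fell from 45.04 ± 14.5 in WT to 19.4 ± 4.54 in KO (log2 fold change -1.14 ± 0.25, adjusted p = 0.0216). Sqle, the squalene epoxidase, had KO libraries that did not overlap WT, at 21.9 and 20.8 in WT leptotene, 20.9 and 16.9 in WT zygotene, 25.5 and 31.5 in KO leptotene and 26.6 and 33.7 in KO zygotene, and missed the threshold (adjusted p = 0.119).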
